A study of Mus musculus with 24 samples.

Results

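The promoters of the genes for cytosolic ribosomal proteins were examined in H3K27ac ChIP-Seq of isolated quadriceps myofibers. Members were autosomal RefSeq protein-coding genes with a curated transcript whose symbol is Rpl or Rps followed by a digit, or Rpsa, Rplp0, Rplp1 or Rplp2. Genes for Rps6k kinases and symbols that end in -ps or in l were left out. The rule gave 79 of 20021 genes, on 18 chromosomes. Of these, 73 encode structural subunits of the ribosome, 43 of the large and 30 of the small subunit. The other 6 only match by symbol. They are Rpl22l1 and Rpl7l1, which encode paralogs, Rps19bp1, which encodes an RPS19 binding protein, and the retrogenes Rps23rg1, Rps27rt and Rpl37rt.

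Myofibers came from male and female C57BL/6J mice (C57BL/6 in the labels) that were 10 weeks old when treatment began. Prednisone-treated mice received 5 weekly i.p. injections of 1 mg/kg over 4 weeks, with vehicle (DMSO in PBS) on the days between, and their quadriceps were harvested 4, 6 or 8 days after the last injection. Control mice received vehicle alone. The study made 2 H3K27ac libraries and 1 input library in each of the 8 groups, but 1 peak list per group was deposited, so a comparison between groups has no replicate error and no test. Myofibers were separated from other cells by collagenase and filtering only. Of 12 genes that mark myofibers, 8 to 11 had a peak within 1 kb of a start in each list. Ckm and Atp2a1 had one in all 8 lists. In contrast, Myh1 had one only at female day 4 (651 bp), and Myh2 only at female days 6 and 8 (721 and 500 bp). Acta1 and Myh4 had none at male day 4. Of 10 genes that mark other cells of muscle, 0 to 6 had a peak in each list. Ptprc (leukocytes) and Adipoq (adipocytes) were among those with none in any list. Others had wide peaks at female day 6, namely Pecam1 (10780 bp) and Cdh5 (15077 bp) of endothelium and Pdgfrb (22879 bp) of pericytes, and these had a peak in 6, 5 and 4 lists.

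The ribosome is assembled from ribosomal RNA and about equal molar amounts of its proteins, so the genes for these proteins are expressed together and at a high level in nearly every cell. Their transcripts usually begin with a C followed by a run of pyrimidines, the 5′ terminal oligopyrimidine (TOP) motif, through which the kinase mTOR and the RNA binding protein LARP1 control translation. Ribosome content is a determinant of the capacity of muscle for protein synthesis, which mTOR signaling is known to raise and sustained glucocorticoid exposure to lower. H3K27ac is a histone modification found at active promoters and enhancers.

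The annotated starts of the members were first examined for these features. The most upstream start with a sequence was used for each gene. Peaks were measured from the nearest of all starts of a gene, so the 2 positions can differ where a gene has more than 1 start. RefSeq promoter sequences of GRCm38.p6 (mm10), which run from 250 bases before a start to 50 bases from it, matched 59 of the 79 members and 15996 of all genes. A run of at least 5 pyrimidines that began at the annotated first base was present in 17 of 59 members (28.8%) and in 3.81% of all promoters. Members had C as the first base in 39.0% of promoters and all genes in 13.9%. Runs of 8 or more pyrimidines within 20 bases of the start were found in 47.5% of members and 16.1% of all promoters. The 6 subunit genes with the longest run are shown from 60 bases before the start through the first 20 transcribed bases, with the run at the first base in capitals.
Rpl27a (chr7:109519135-109519214, plus strand): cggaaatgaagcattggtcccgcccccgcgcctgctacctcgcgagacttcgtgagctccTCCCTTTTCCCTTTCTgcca
Rpl15 (chr14:18270967-18271046, minus strand): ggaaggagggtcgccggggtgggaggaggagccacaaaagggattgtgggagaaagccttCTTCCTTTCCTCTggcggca
Rpl35 (chr2:39005112-39005191, minus strand): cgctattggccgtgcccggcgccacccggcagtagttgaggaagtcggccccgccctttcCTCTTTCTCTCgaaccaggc
Rps10 (chr17:27635225-27635304, minus strand): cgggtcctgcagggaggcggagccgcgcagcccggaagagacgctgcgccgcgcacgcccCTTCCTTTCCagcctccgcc
Rps18 (chr17:33955646-33955725, minus strand): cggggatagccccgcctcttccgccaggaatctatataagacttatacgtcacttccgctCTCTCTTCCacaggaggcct
Rps6 (chr4:86857348-86857427, minus strand): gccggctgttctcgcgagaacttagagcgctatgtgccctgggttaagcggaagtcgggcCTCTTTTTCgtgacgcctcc
Run lengths in these genes were 16, 13, 11, 10, 9 and 9 bases, in the order shown. Rpl27a, Rpl15 and Rps18 had a peak in all 8 lists, Rpl35 and Rps6 in 7 and Rps10 in 5.

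CCGGAAG, a form of the motif bound by ETS-family factors, was searched on both strands. It was found in 22 of 59 member promoters (37.3%), in 12.5% of all promoters and in 20.9% of the 2864 promoters of genes with a peak in all 8 lists. It is shown in capitals for the 5 subunit genes in the fewest lists that hold it in the window from 60 bases before the start through base 20, other than those above and with ties taken in alphabetical order.
Rpl11 (chr4:136053374-136053453, minus strand): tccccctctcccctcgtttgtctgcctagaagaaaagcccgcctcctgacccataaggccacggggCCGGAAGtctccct
Rps3a1 (chr3:86142649-86142728, minus strand): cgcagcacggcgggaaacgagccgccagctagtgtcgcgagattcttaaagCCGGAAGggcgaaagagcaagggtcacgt
Rpl38 (chr11:114668520-114668599, plus strand): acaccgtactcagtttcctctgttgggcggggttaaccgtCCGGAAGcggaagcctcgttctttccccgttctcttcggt
Rpl41 (chr10:128549149-128549228, minus strand): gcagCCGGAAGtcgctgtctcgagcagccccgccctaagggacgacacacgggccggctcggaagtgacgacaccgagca
Rpl6 (chr5:121204441-121204520, plus strand): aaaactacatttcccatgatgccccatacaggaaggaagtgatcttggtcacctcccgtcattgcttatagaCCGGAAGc
The motif began 56, 20 and 9 bases before the first base in Rpl41, Rpl38 and Rps3a1, and at bases 7 and 13 of the transcript in Rpl11 and Rpl6. AAGATGGC, a form of the YY1 motif, was found in 6 members (10.2%) and in 3.25% of all promoters. On the gene strand alone it was found in 3 members (5.08%) and in 2.19% of all promoters. GGGCGG, the core of Sp1 sites, was found in 57.6% and 48.3%, but in 69.3% of genes with a peak in all 8 lists, and on the gene strand alone in 27.1% of members and 31.9% of all promoters. CCAAT, bound by NF-Y, was found in 30.5% of members and 39.1% of all promoters, and on the gene strand alone in 18.6% and 22.6%. TATAAA was found in 5 members (8.47%) and in 13.3% of all promoters, but in 5.90% of genes with a peak in all 8 lists. The NRF1 consensus was present in the Rpl37a promoter alone among members and in 1.41% of all promoters. ACANNNTGT, the motif of the glucocorticoid receptor, was present in the Rps13 promoter alone among members (1.69%). It was in 5.96% of all promoters and in 2.76% of genes with a peak in all 8 lists. The MEF2 consensus was in 0 members and 0.519% of all promoters. All of these motifs were searched on both strands, and none of the matches is evidence of binding.

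Most ribosomal protein genes had an H3K27ac peak within 1 kb of a start, and every structural subunit gene had one in each of the 3 lists from prednisone-treated females. In males, vehicle had a peak at 73 of 79 members, day 4 at 58, day 6 at 54 and day 8 at 53. The share of all genes with a peak in these lists was 56.5%, 32.9%, 32.9% and 36.6%. In females, vehicle had a peak at 53 members, day 4 at 76 and days 6 and 8 at 77 each. The share of all genes was 30.2%, 55.3%, 71.1% and 63.7%. Thus the share of members with a peak exceeded that of all genes in every list, and it was lowest in male day 8 and female vehicle, at 67.1% in each. Mitochondrial ribosomal protein genes, which encode a separate set of proteins, also exceeded all genes in every list. The excess was thus not particular to members. Their share was above that of members in male vehicle (94.9% against 92.4%) and male day 8 (70.5% against 67.1%). The same held at female day 4 (98.7% against 96.2%) and days 6 and 8 (100% against 97.5% at each). It was below that of members at male days 4 and 6 (59.0% and 57.7%, against 73.4% and 68.4%) and in female vehicle (59.0% against 67.1%).

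**Figure D1:**
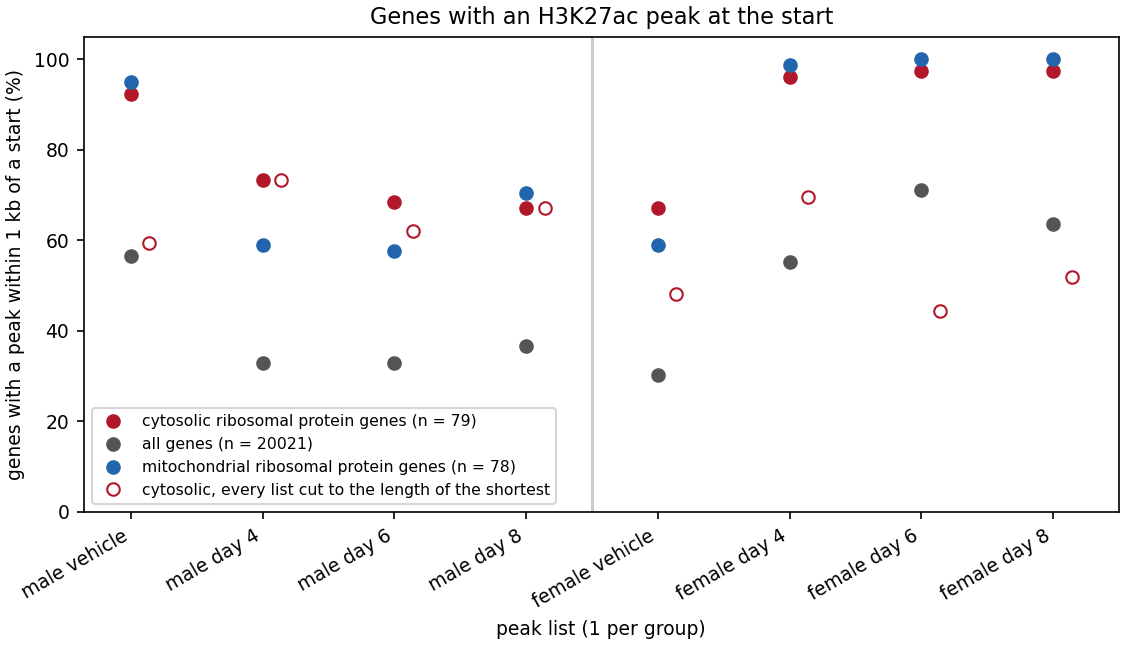
Share of genes with an H3K27ac peak within 1 kb of a start (y axis, %) in each peak list (x axis, 1 list per group, no error bars since there is 1 list per group) for the 79 cytosolic ribosomal protein genes (red), 78 mitochondrial ribosomal protein genes (blue) and all 20021 genes (grey). Filled red points run from 67.1% to 97.5% and lie above the grey points in every list, whereas the open red points, for lists reduced to the 17482 highest findPeaks scores, are no longer higher in vehicle than at day 4 in males.

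A peak in all 8 lists was found at 26 members (32.9%) and at 17.3% of all genes. These were 25 structural subunit genes and Rpl22l1. They included 16 of 43 large-subunit genes, such as Rpl10a, Rpl15, Rpl19, Rpl7 and Rplp2, and 9 of 30 small-subunit genes, such as Rps14, Rps18 and Rps25. A further 28 members (35.4%, compared with 10.5% of all genes) had a peak in 7 lists, and the missing list was female vehicle or male day 8 for 8 members each, male day 4 for 7 and male day 6 for 5. Rpsa and Rps19 were among those without a peak in female vehicle, whereas Rpl3 and Rplp1 lacked one in male day 4, Rpl5 and Rpl8 in male day 6, and Rps6 and Rps27a in male day 8. RPS19 and RPL5 are proteins whose deficiency causes Diamond-Blackfan anemia, RPS6 is the substrate of S6 kinase, and RPS27A is made as a fusion with ubiquitin.

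The members in the fewest lists included 2 of the retrogenes, Rps23rg1 and Rps27rt, which had no peak in any list. The third, Rpl37rt, had one only in female day 6 (908 bp) and female day 8 (500 bp), and its fold over input was at the 5.96 and 0.161 percentile of promoter peaks in these lists. Retrogenes are nearly identical to their parent genes, and reads that match both copies could have been counted for either or dropped. Among structural subunits, Rps24 was found in the fewest lists, with widths of 1293, 1590 and 1629 bp at female days 4, 6 and 8. Rpl11, whose product binds MDM2 together with RPL5 and 5S RNA, had peaks of 500 bp in male day 4 and of 1523, 3302 and 1450 bp at female days 4, 6 and 8. Rpl37a and Rps3a1 shared 1 pattern, in which a peak was present in male vehicle and in the 3 female prednisone lists but in no other list. In Rpl37a these peaks had 2540 bp in male vehicle and 1304, 2196 and 1491 bp at female days 4, 6 and 8. Rplp0, the scaffold of the P stalk that recruits elongation factors, had 1011 bp in male vehicle, 628 bp in male day 8 and 923, 3057 and 1677 bp at female days 4, 6 and 8. The other stalk genes, Rplp1 and Rplp2, had a peak in 7 and 8 lists.

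**Figure D2:**
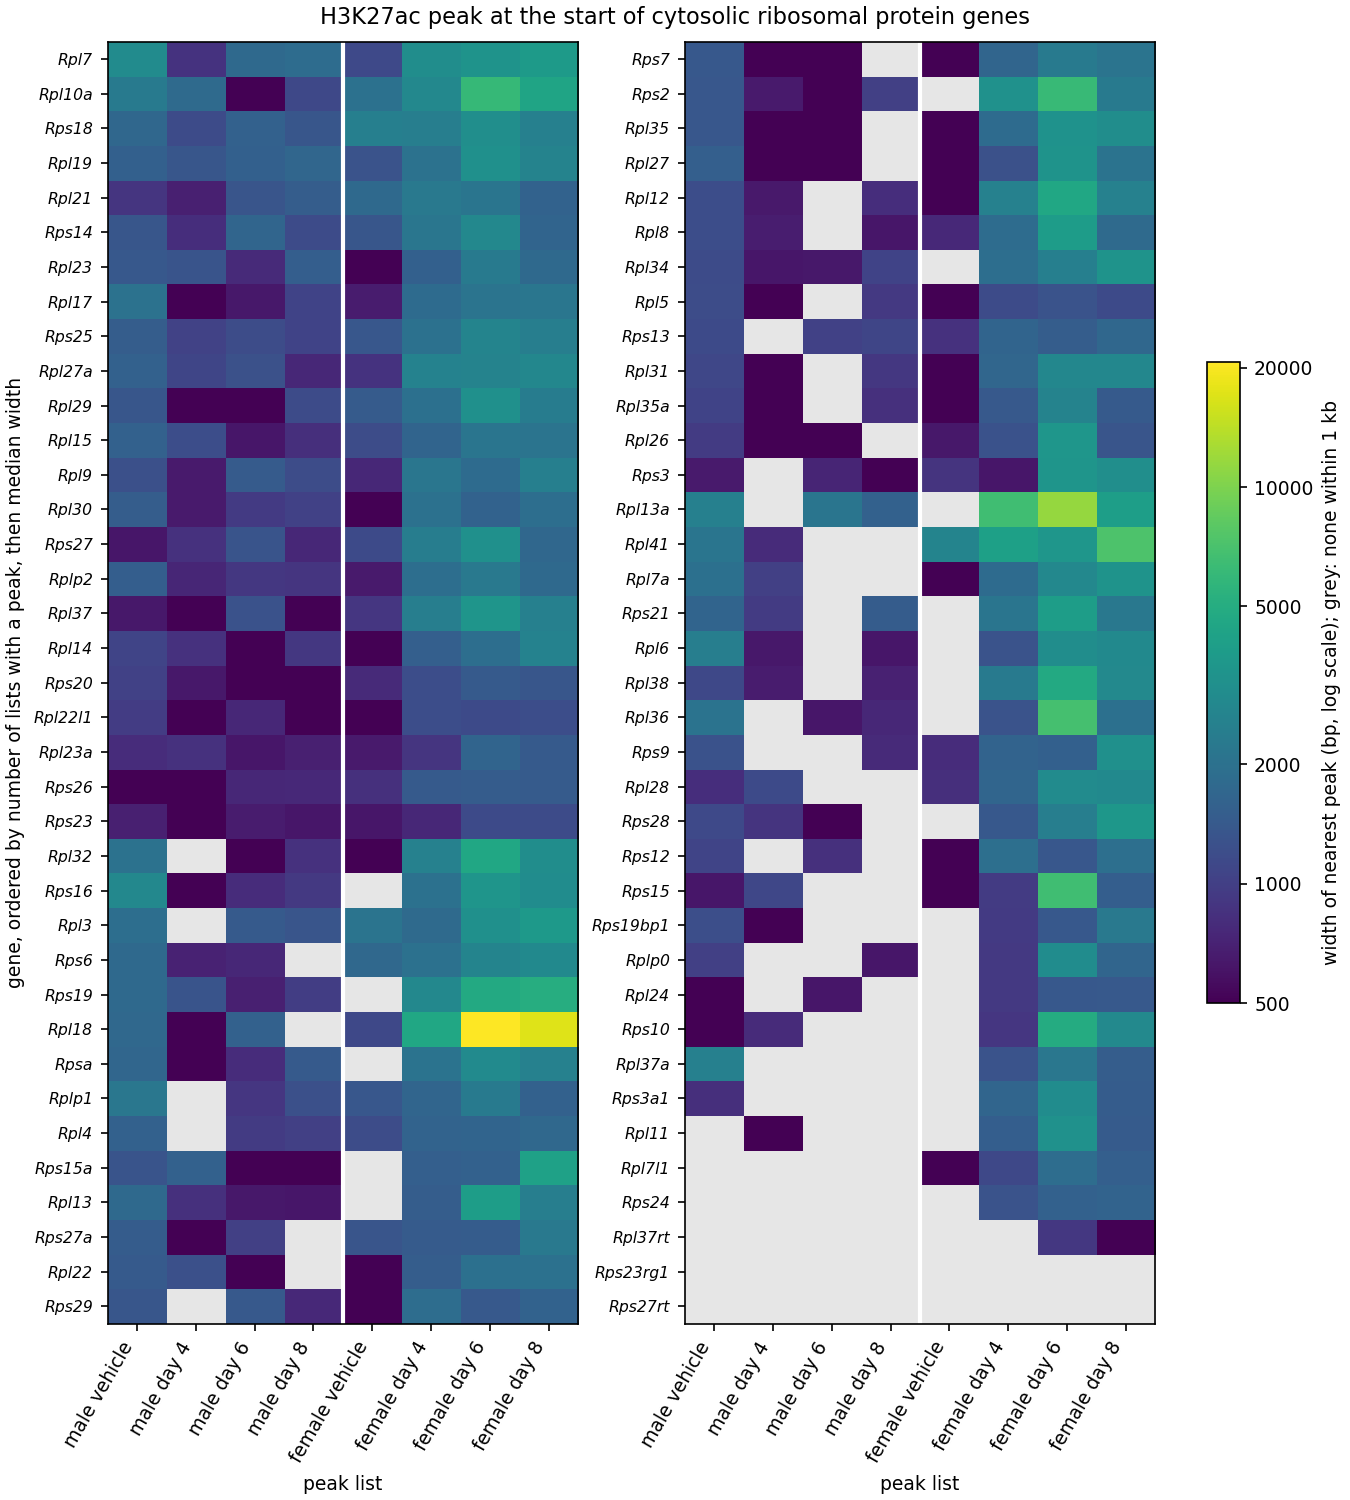
Width in bp (color, log scale) of the H3K27ac peak nearest to a start for 74 of the 79 genes (rows, ordered by number of lists with a peak and then by median width) in the 8 peak lists (columns, with males left of the white line), where grey marks no peak within 1 kb. Grey cells gather in the male day 4, 6 and 8 and female vehicle columns, and the widest peak is the 20635 bp peak of Rpl18 in female day 6.

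The width of the peak nearest to a start was then compared, since findPeaks in histone style merges neighboring regions of signal and the smallest peak it gave here was 500 bp. The median width of member peaks was 1388 bp in male vehicle (quartiles 1080 and 1773), 684 bp in male day 4 (500 and 936), 766 bp in male day 6 (625 and 1183) and 929 bp in male day 8 (757 and 1140). The medians over all genes with a peak were 1050, 714, 1006 and 936 bp. In females, the member median was 780 bp for vehicle (500 and 1195), then 1698 bp for day 4 (1380 and 2144), 2805 bp for day 6 (1829 and 3489) and 2254 bp for day 8 (1650 and 2924). The medians over all genes were 782, 1646, 1889 and 1944 bp. The member median was above that of all genes mainly in male vehicle and female days 6 and 8, where the median member was at the 65.4, 70.0 and 59.5 percentile of promoter peaks. In male day 6 the median member was at the 34.4 percentile. Among genes with a peak in all 8 lists the direction turned, and the 26 members had a lower median than all 3462 such genes in every list. Their medians were 1390, 2274 and 2130 bp in male vehicle and female days 6 and 8, compared with 1612, 2780 and 3004 bp. Peaks of mitochondrial ribosomal protein genes had a lower median than member peaks in 7 of the 8 lists, for example 1492 bp in female day 6, and the exception was male day 6, with 913 bp.

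**Figure D3:**
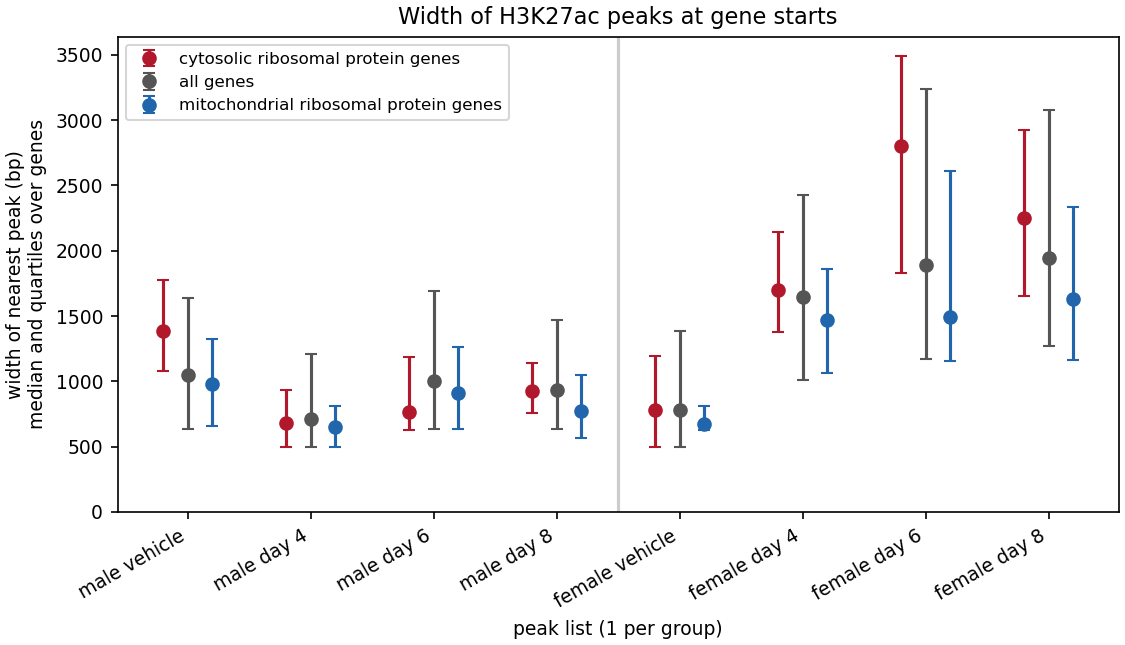
Width of the H3K27ac peak nearest to a start (y axis, bp) in each peak list (x axis) for cytosolic ribosomal protein genes (red), all genes (grey) and mitochondrial ribosomal protein genes (blue), as the median (point) and quartiles over genes (bars). The red median is 2805 bp in female day 6, against 1889 bp for all genes and 1492 bp for mitochondrial ribosomal protein genes.

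The widths of member peaks were set beside properties of the whole list. The share of H3K27ac tags in peaks ranged from 5.39% in male day 6 to 47.3% in female day 6, and is computed from the same called peaks, so wider peaks raise it. As a description only, its Pearson's r with the median member width over the 8 lists was 0.920, Spearman's rho was 0.810, and r was 0.643 without female days 6 and 8. The relation with sequencing depth, which ranged from 7.52 M tags in male day 4 to 50.5 M in male day 6, had an r of 0.242 (two-sided exact permutation test over 40320 orders, p = 0.557, adjusted p = 0.557 over 2 relations) and a rho of 0.214 (exact p = 0.619, adjusted p = 0.619). Without male days 4 and 6 its r was 0.258.

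The comparison of prednisone with vehicle went in opposite directions in males and females. It asks which promoters carry the mark at each day after the last injection, and the 3 days of a sex share 1 vehicle list. The share of all genes, counted the same way, is given in parentheses. In males at day 4, 16 of 73 members with a vehicle peak had no peak (44.8% of all genes), and 1 of 6 without a vehicle peak had one (4.06%), which was Rpl11. Of 57 members with a peak in both lists, 35 were at least 1.5-fold narrower (52.9% of all genes) and 2, Rps10 and Rps15, were at least 1.5-fold wider (4.50% of all genes). In females at day 4, 23 of 26 members without a vehicle peak had one (37.5% of all genes) and 0 of 53 lost theirs (3.57% of all genes). Of these 53, 39 were at least 1.5-fold wider (77.0% of all genes) and 0 were narrower (0.651% of all genes). As shares, 21.9% of members lost a vehicle peak in males and 88.5% of members without one acquired it in females. The median ratio of day 4 to vehicle width was 0.534 in males, against 0.645 for all genes, and 2.10 in females, against 2.35.

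The same directions were seen at the later days. In males, 19 of 73 members had no peak at day 6 (44.7% of all genes) and 20 at day 8 (38.5%). None of the 6 members without a vehicle peak had one at day 6 (3.91%) or day 8 (4.20%). Of these 6, only Rpl11 and Rps24 encode structural subunits, so the count says little about gains at such genes. At day 6, 30 of 54 shared peaks were narrower (36.5%) and 4 wider (15.7%), and at day 8, 26 of 53 were narrower (36.5%) and 2 wider (8.42%). In females, 24 of 26 members had a peak at day 6 that was absent in vehicle (59.6%) and 24 of 26 at day 8 (48.9%). Of the 53 shared peaks, 48 were wider at day 6 (81.4%) and 47 at day 8 (86.9%), whereas 0 were narrower (1.42% at day 6 and 0.287% at day 8). Of 53 vehicle peaks, 0 were missing at either day (2.11% at day 6 and 2.16% at day 8). Median ratios to vehicle were 0.596 and 0.680 in males and 2.83 and 2.74 in females at days 6 and 8, against 0.835, 0.797, 2.91 and 2.99 for all genes.

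These directions were not all kept when the lists were made alike. With every list reduced to the 17482 peaks of the male day 4 list by findPeaks score, members with a peak numbered 47, 58, 49 and 53 in male vehicle and at days 4, 6 and 8, and 38, 55, 35 and 41 in the female lists. The shares of all genes were 31.0%, 32.9%, 29.1% and 35.8% in males and 23.1%, 32.3%, 32.0% and 31.6% in females. Members were then both gained and lost at every day. In males, 22, 19 and 21 of 32 members were gained at days 4, 6 and 8 (17.7%, 14.8% and 18.8% of all genes), and 11, 17 and 15 of 47 were lost (33.1%, 39.0% and 26.3%). In females, 28, 17 and 22 of 41 were gained (22.4%, 24.3% and 23.8% of all genes), and 11, 20 and 19 of 38 were lost (34.5%, 42.5% and 42.6%). Fewer peaks were shared. At male days 4, 6 and 8, 25 of 36, 16 of 30 and 11 of 32 of these were narrower. The shares of all genes were 49.2%, 34.4% and 31.6%. At female days 4, 6 and 8, 18 of 27, 16 of 18 and 15 of 19 were wider (73.8%, 73.7% and 83.2%). With the full lists and a 2-fold limit, 9 of 53 shared member peaks were narrower at male day 8. No share of all genes is given at this limit, so this count is not read as particular to members. Median widths in these reduced lists kept their order, with 1360 bp in male vehicle against 684 bp at day 4, and 847 bp in female vehicle against 1659 bp at day 4. The number of peaks per list ranged from 17482 in male day 4 to 123249 in female day 6, and the number of markers of other cells with a peak also varied, with 6, 1, 2 and 0 of 10 in male vehicle and days 4, 6 and 8, and 1, 5, 5 and 6 in females. The part of these differences in the member counts was not tested.

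**Figure D4:**
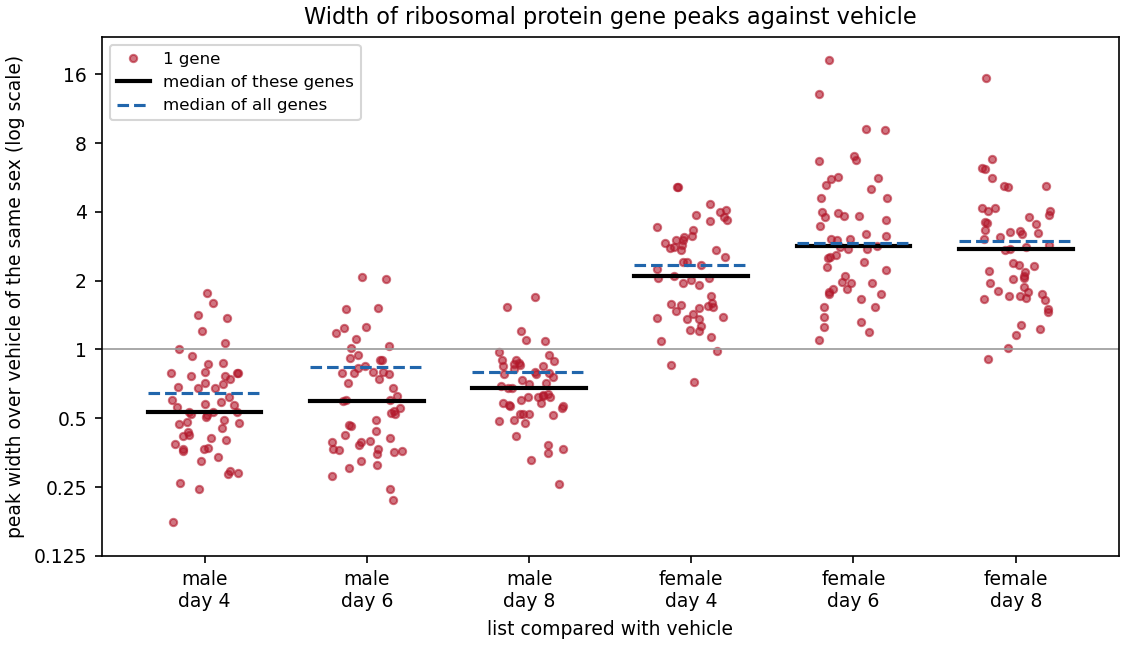
Ratio of the width of a member peak to that in vehicle of the same sex (y axis, log scale) at days 4, 6 and 8 in males and females (x axis), with 1 point per gene that had a peak in both lists, the median of these genes (black line) and the median of all genes (dashed blue line). Male medians lie between 0.534 and 0.680 and female medians between 2.10 and 2.83.

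Single members departed from the rest. Rps16 had a peak of 2843 bp in male vehicle and of 500 bp at male day 4, a ratio of 0.176, followed by Rpl17 (0.246) and Rpl6 (0.261). The smallest size of 500 bp was reached by 19 of 58 member peaks at male day 4, Rps16 and Rpl17 among them. It was reached by 19 of 53 in female vehicle, so the ratios of members at this size are set by that limit. These were 32.8% and 35.8% of member peaks, compared with 33.9% and 30.1% of the peaks of all genes. Rps15, Rps10 and Rpl28 were wider at male day 4, with ratios of 1.77, 1.59 and 1.41. In females at day 4, ratios were highest for Rpl12 (5.15) and Rpl32 (5.12), both from a vehicle peak of 500 bp, the smallest size. They were below 1 for Rps3 (0.722), Rpl3 (0.854) and Rps18 (0.983). Rpl21 and Rps26 were the members at least 1.5-fold wider than vehicle at male day 8, and both were also wider at male day 6. Rps26 had 500 bp in male vehicle and at day 4, 759 and 772 bp at days 6 and 8, and 841, 1440, 1466 and 1449 bp in female vehicle and at days 4, 6 and 8.

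The order of members by width was only partly shared between lists. Across members, Spearman's rho of widths between 2 lists ranged from 0.042 to 0.555 over 28 pairs of lists, with a median of 0.297, as a description of genes that are not replicates. Of the 26 members with a peak in all 8 lists, 5 (among them Rpl19, Rpl7, Rps18 and Rps25) were wider than the median promoter peak in every list, and 3 (Rpl22l1, Rps20 and Rps23) were narrower in every list. The share of all genes that did so is not given, so these counts describe single members only. Rps23 had widths of 698, 500, 659 and 626 bp in male vehicle and days 4, 6 and 8, and of 627, 758, 1150 and 1176 bp in the female lists. The highest medians over the lists in which a gene had a peak included those of Rpl13a (3259 bp), Rpl41 (3116) and Rpl7 (2428), and the lowest were those of Rps23 (678), Rpl37rt (704), Rps3 (730), Rps26 (806) and Rpl23a (824). These medians also depend on which lists held a peak. By median percentile of width within a list, the lowest were Rpl37rt (10.2), Rpl24 (22.5), Rps23 (22.9), Rpl22l1 (23.4) and Rps15 (28.9). Rpl13a had peaks of 6609 and 11476 bp at female days 4 and 6. Each of these was also the nearest peak of a neighboring member, so it was counted for both genes. Rpl18, whose start is within 1 kb of that of Sphk2, had peaks of 4573, 20635 and 17247 bp at female days 4, 6 and 8 and of at most 1755 bp in the other lists.

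Rpl3l, a muscle-specific paralog of Rpl3 that the rule leaves out, had a peak in all 8 lists, and this was wider than that of Rpl3 in 6 of the 7 lists where both had one. The exception was female vehicle. Widths of the Rpl3l peak were 5830, 1651, 2235 and 2541 bp in male vehicle and at days 4, 6 and 8, and 1796, 10483, 12393 and 13585 bp in the female lists. Rpl3 had 1915 bp in male vehicle, no peak at male day 4, 1428 and 1325 bp at male days 6 and 8, and 2106, 1799, 3248 and 3759 bp in the female lists.

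The median member peak reached farther into the gene than before it in 7 of the 8 lists, as did the median peak of all genes in all 8 lists. In male vehicle the median member peak covered 537 bp before and 769 bp after the start, and in female vehicle 387 and 548 bp. At female day 6 it covered 891 bp before and 1625 bp after the start, compared with 756 and 1045 bp over all genes. At female day 8 the values were 855 and 1321 bp, compared with 802 and 1055 bp. Male day 6 was the exception, with 568 bp before and 480 bp after the start. In that list 28 of 54 member peaks lay over the start itself, 15 lay wholly before it and 11 wholly after it, whereas 77 of 77 lay over the start in female day 6. Over the start lay 62.9% of the peaks of all genes in male day 6, where 1172 of 6596 lay wholly before it and 1273 wholly after it, and 89.7% in female day 6. Member genes are short, with a median length of 3.23 kb against 18.0 kb for all genes, and at female day 6 the peak covered the whole gene in 18 of 77 members (23.4%), compared with 4.75% of all genes. This was so for 0 members in the 4 male lists (0.106% to 0.663% of all genes), and for 1, 3 and 4 in female vehicle and at female days 4 and 8 (0.413%, 1.53% and 2.91% of all genes). Across members at female day 6, gene length had a Spearman's rho of -0.075 with peak width.

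**Figure D5:**
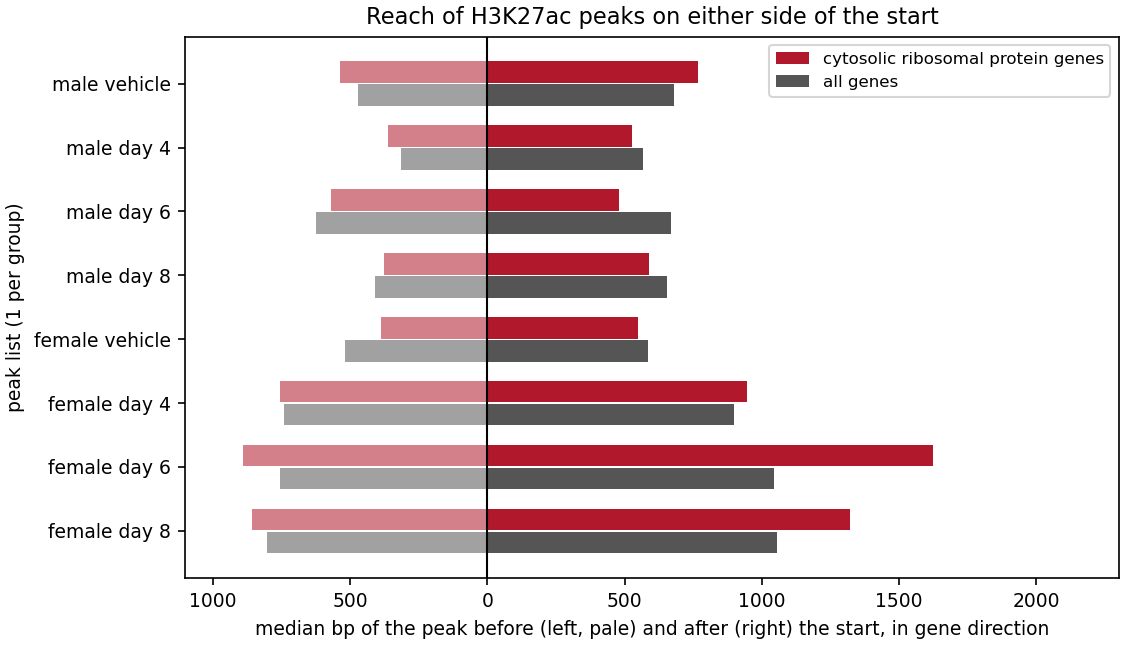
Median bp that the nearest H3K27ac peak covers before the start (left, pale) and after it (right) in gene direction (x axis) in each peak list (y axis), for cytosolic ribosomal protein genes (red) and all genes (grey). The longest bar is that of member peaks after the start in female day 6, with 1625 bp against 1045 bp for all genes.

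Fold over input was compared only by rank within a list. The median member was at the 59.2, 45.4, 41.5 and 38.7 percentile of promoter peaks in male vehicle and at days 4, 6 and 8, and at the 49.5, 59.8, 65.6 and 60.8 percentile in females. By findPeaks score it was at the 59.2, 66.6 and 58.1 percentile at male days 4, 6 and 8, above the middle of the list instead of below it, whereas female days 6 and 8 fell to the 50.7 and 54.4 percentile. By normalized tags per bp the female values were 72.8 and 69.7 instead, above those by fold over input, and the male values were 59.4, 65.9 and 54.2. Rps9, Rps27a and Rpl21 had the highest median percentile over lists (89.9, 85.7 and 81.8), and Rpl37rt, Rps15 and Rpl9 the lowest (3.06, 12.6 and 23.3). Rpl21 was high in all 8 lists, from the 60.7 percentile in male day 8 to 95.3 in female day 4. Rpl9 ranged from the 4.43 percentile in male day 6 to 97.4 in female day 6. Members thus held no common rank by fold over input.

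Members were also compared by subunit, by snoRNAs in their introns and by their promoters. Medians for large- and small-subunit genes were 1519 and 1360 bp in male vehicle and 3057 and 2682 bp in female day 6, but 668 and 794 bp in male day 4 and 666 and 862 bp in female vehicle. The large-subunit median was the higher in 4 of the 8 lists. Introns of 28 members host small nucleolar RNAs (snoRNAs), which guide ribosomal RNA modification, and median widths were 2908 bp in the 28 hosts and 2826 bp in the other 45 subunit genes at female day 6. At male day 8, 25 of the 28 hosts and 27 of the 45 others had a peak, whereas at male day 4 the numbers were 20 and 36. Another gene started within 1 kb of 12 members, and these had a median of 1156 bp in female vehicle, compared with 718 bp in members without such a neighbor, but 2650 and 2826 bp in female day 6. Their median was the higher in 6 of the 8 lists. Of members with CCGGAAG in the promoter, 21 of 22 had a peak at male day 4, compared with 23 of 37 without it. All 22 are structural subunit genes, whereas the 37 include the 6 that only match by symbol. Of these 6, Rpl7l1, Rps23rg1, Rps27rt and Rpl37rt had no peak at male day 4. The gap was smaller in the other 7 lists, for example 63.6% and 59.5% at male day 6 and in female vehicle. Median widths of the same groups were 662 and 842 bp at male day 4 and 3124 and 2293 bp at female day 6. None of these differences between members was tested.

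Other genes of the translation machinery were examined beside the members. A peak in all 8 lists was found at 24 of 78 mitochondrial ribosomal protein genes and 26 of 53 genes whose symbol is Eif followed by a digit. These Eif genes are mostly initiation factors, but Eif4ebp1 and Eif5a are among them. It was also found at 7 of 7 elongation factor genes, 9 of 14 other genes with TOP mRNAs and 10 of 21 ribosome biogenesis genes. In the mTOR and S6 kinase pathway it was found at 8 of 13 genes. The sets overlap. For example, Eif5a and Eef2 are also counted as elongation factors and as TOP genes respectively, and Npm1 as a TOP and a biogenesis gene. Among elongation factors, Eef1a1 had 1823, 1656, 2266 and 1823 bp in the male lists and 2252, 2214, 3123 and 2660 bp in the female lists, so that its widths at day 4 were close to vehicle in both sexes. Eef1a2, its paralog in muscle and neurons, had 6466, 2927, 500 and 2945 bp in the male lists. Its widths in the female lists were 3033, 8491, 14870 and 15794 bp. Rack1, which encodes a ribosomal protein under another symbol, had a peak in all 8 lists, and Fau, also such a gene, in 6.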

How the data were processed

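H3K27ac ChIP-Seq and input libraries came from isolated quadriceps myofibers of 8 groups. Per the labels and the study's methods, the authors aligned reads to mm10 with Bowtie2 (version 2.2.6 in the submitters' processing notes, which also name TopHat2 2.1.0) and called peaks with HOMER findPeaks in histone style with 2-fold over input. The step that pooled both libraries into 1 list is not given in the sources used here. The deposited normalized tag count is a signal scaled to 10 M tags, the deposited findPeaks score is a tag number, and the deposited fold over input is a ratio. The deposited total tag count is a raw count in 2 lists and scaled to input depth in 6, and was used only to recover depth. Deposited p-values were not used.

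A gene had a peak when one lay within 1 kb of any curated RefSeq start (GRCm38.p6), and the nearest peak gave the width. Members with a peak in both lists of a contrast were compared at 1.5-fold. Percentiles are ranks among the promoter peaks of 1 list. Members, gene lists, the rule for named genes and the alternatives were chosen with earlier results of these data known. Genes were named if they had a peak in the fewest lists, the highest or lowest median width or fold percentile, or the largest width ratio at day 4, or belonged to a set list. Other genes given as examples were picked after their values were seen. Promoter motifs were counted in the most upstream RefSeq entry of each gene, and 20 members had no entry, among them Rpl17, Rpl21, Rpl23a, Rpl29, Rpl3, Rpl30, Rpl32, Rpl36, Rpl7, Rpl8, Rplp1, Rps14, Rps20, Rps27a and Rps29. Some genes that the rules name are counted but not reported singly here. On simulated peaks 600 of 600 distances and widths were recovered, and presence was the same as from bedtools 2.31.1 for 20021 of 20021 genes. Scripts ran in Python 3.11.15 with scipy 1.17.1, numpy 2.4.6, pandas 2.3.3 and matplotlib 3.10.9.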

Additional observations from a re-analysis of the deposited data

Results flagged for a closer look

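With the full lists, members moved in opposite directions in males and females relative to vehicle, in number and in width. The number of members with a peak in males differed from vehicle by -15, -19 and -20 on days 4, 6 and 8. In females it differed by 23, 24 and 24. The median ratio of width to vehicle was 0.534, 0.596 and 0.680 in males and 2.10, 2.83 and 2.74 in females. All genes moved in the same directions. Their share with a peak was 56.5% in male vehicle and 32.9%, 32.9% and 36.6% on days 4, 6 and 8, and 30.2%, then 55.3%, 71.1% and 63.7%, in females. Their median width ratios were 0.645, 0.835 and 0.797 in males and 2.35, 2.91 and 2.99 in females. The difference between the sexes was not tested, because each group has 1 peak list. The vehicle lists themselves differed, with 73 members in males and 53 in females. With lists of equal length the direction in number was not kept in males and at female day 6. Members with a peak then numbered 47, 58, 49 and 53 in male vehicle and at days 4, 6 and 8. In the female lists they numbered 38, 55, 35 and 41.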

How the results depend on the processing

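No paired analysis was possible because 1 pooled list per group was used, in which replicate numbers are not kept. Of 256 alternative values, 213 stayed within 1.5 times the main count or within the spread used for widths and 43 moved. With lists of equal length male vehicle fell below days 4, 6 and 8 in member counts (47 against 58, 49 and 53), and female day 6 fell below vehicle (35 against 38). With lists of equal length, members with a peak numbered 47, 35 and 41 in male vehicle, female day 6 and female day 8. Of all genes, 31.0%, 32.0% and 31.6% had one in these lists. With the peak over the start, members numbered 28 in male day 6 and 33 in female vehicle. All genes then numbered 4151 and 3127 of 20021. At 4-fold over input or more, members numbered 19 and 28 in male days 6 and 8. No share of all genes is given at that setting. Members in all 8 lists numbered 12 with the peak over the start, 5 at 4-fold over input and 3 with lists of equal length, and 26 to 34 when 1 list was left out. No share of all genes is given for these counts, so whether members still exceed it is not shown. Median widths were 2023 and 1906 bp in female days 6 and 8 with lists of equal length, and 949, 2008 and 2274 bp in male day 6, female day 4 and female day 6 over members in all 8 lists. At day 4 against vehicle in males, 22 of 32 members gained a peak with lists of equal length (17.7% of all genes). With the full lists, 0 of 57 shared peaks were wider and 23 narrower at 2-fold, and 1 was wider by the widest peak. No share of all genes is given for the 2-fold and widest-peak counts. In females with lists of equal length, 11 of 38 lost a peak (34.5% of all genes) and 18 of 27 were wider (73.8%). The cause of these shifts was not tested, apart from stricter settings keeping fewer peaks. Depth ranged from 7.52 to 50.5 M tags, and a member without a peak was not detectable in that list, which is not evidence of absence.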

Other observations

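The ribosomal protein genes on the X chromosome, which the rule leaves out, had a peak in all 3 female prednisone lists and in no male day 4 list. Rpl39 had widths of 500, 699 and 646 bp in male vehicle and at days 6 and 8, and of 500, 1758, 2104 and 2680 bp in the female lists. Rpl36a had a peak only at female days 4, 6 and 8, with 770, 1219 and 1278 bp. Rps4x had 500 bp at male day 6 and 500, 627 and 1276 bp at female days 4, 6 and 8. Rpl10 had 500 and 1811 bp in male vehicle and day 6, and 500, 2339, 2691 and 3125 bp in the female lists. Of paralogs with symbols that end in l, Rpl10l and Rpl39l, known from the testis, had a peak in female day 6 only, of 653 and 500 bp.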
